A study of Saccharomyces cerevisiae with 12 samples.

Results

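The genes described here are 9 genes of baker's yeast that serve the uptake and retention of iron bound to siderophores: the cell wall mannoproteins FIT1, FIT2 and FIT3, the plasma membrane reductases FRE3 and FRE4, and the transporters ARN1, ARN2, SIT1 and ENB1. They are 9 of the 5449 genes measured. They were selected by function as a family, with the measured changes at both alachlor doses already known, so their levels and changes in treated against control cultures are given as a description, without p-values. Each gene was read by 1 probe set, and none of these probe sets is marked by the manufacturer as shared with a similar sequence.

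The study measured total RNA of Saccharomyces cerevisiae BY4741 on 12 Affymetrix Yeast Genome 2.0 arrays. Alachlor, a herbicide of the chloroacetanilide class, was given for 2 h to cultures growing exponentially in minimal medium. Each dose was a separate experiment with untreated controls of its own. There were thus 4 groups of 3 arrays, each array an independent biological replicate per the series' design text: 110 mg/L alachlor (the dose the submitters call the LOEC), the LOEC controls, 200 mg/L alachlor (the dose they call the IC20) and the IC20 controls. BY4741 is a haploid mating type a strain used widely in laboratories, in which HIS3, LEU2, MET17 and URA3 are deleted, and all 4 groups share these deletions. No group without the deletions and no exposure to a siderophore or to altered iron was among these arrays.

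Siderophores are small molecules that bind ferric iron tightly and are released by many bacteria and fungi. Baker's yeast makes none, but it takes up iron from those of other organisms, either by carrying the intact complex into the cell or by reducing the iron at the cell surface. Most genes of both routes are known targets of Aft1 and Aft2, transcription factors that switch on the iron regulon when iron-sulfur cluster synthesis or iron supply is low.

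Levels below are the authors' deposited linear intensities. The array medians lay between 1561.3 and 1613, and the number of arrays limits the precision. Mating type a genes read 5703 or more on every array, while the alpha-specific genes read 20.9 to 40.7 for MF(ALPHA)1, 163 to 377 for MF(ALPHA)2 and 106 to 198 for STE3. The deleted loci gave 137 to 228.8 for LEU2, 11.2 to 47.2 for URA3 and 114 to 165 for MET17, and their highest reading, 228.8, serves below as the floor: a gene below it on every array of both groups compared gets no fold. MF(ALPHA)2, an alpha pheromone gene, exceeded this floor in a mating type a strain and reached the range of FIT1 and FRE4. Some control readings of FRE3 and the control readings of HMX1, an iron gene given below, also lay in its range. A reading a little above the floor is therefore not shown to be signal of the named gene. In bulk cultures, fewer cells that express a gene and less RNA per cell cannot be told apart.

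FIT2 had the widest range of the 9 genes over the 4 group means, 1.24 on the log2 scale. Its product is a mannoprotein anchored in the cell wall, where it helps to retain siderophore-bound iron. FIT2 read 3595, 3624 and 3733 at 110 mg/L, against 1785, 1788 and 1753 in the LOEC controls. It read 4192, 4284 and 3638 at 200 mg/L, against 1725, 1814 and 1592 in the IC20 controls. At both doses every treated array lay above every control array, with mean ratios of 2.06-fold at 110 mg/L and 2.36-fold at 200 mg/L. The log2 change was 1.04 (SE 0.065, 95% interval 0.90 to 1.18) at 110 mg/L and 1.24 (95% interval 1.09 to 1.38) at 200 mg/L. Among the 5449 genes this ranked 21st by size at 110 mg/L and 34th at 200 mg/L. The response at 200 mg/L minus that at 110 mg/L was 0.20, with a 95% interval of -0.01 to 0.40.

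The other mannoprotein genes had treated arrays that overlapped their controls at both doses. FIT3, which codes for another cell wall mannoprotein, read 4167, 4049 and 4579 at 110 mg/L, against 3543, 4028 and 4188 in the LOEC controls. FIT3 read 3282, 3609 and 3006 at 200 mg/L, against 3531, 3554 and 4047 in the IC20 controls. The 200 mg/L arrays that read 3282 and 3006 lay below all 3 controls, and the array that read 3609 did not. The log2 change of FIT3 was 0.12 (95% interval -0.07 to 0.32) at 110 mg/L and -0.17 (95% interval -0.36 to 0.02) at 200 mg/L. FIT1, the third member, read 311, 324 and 289 at 110 mg/L, against 292, 285 and 255 in the LOEC controls. FIT1 read 287, 316 and 368 at 200 mg/L, against 288, 243 and 255 in the IC20 controls. The overlap at 200 mg/L was 0.56 units, and all 12 readings lay above 228.8. The log2 change of FIT1 was 0.15 (95% interval -0.06 to 0.37) at 110 mg/L and 0.30 (95% interval 0.09 to 0.52) at 200 mg/L. Its intervals rest on a spread pooled over all arrays, although its log2 SD was 0.085 at 110 mg/L and 0.181 at 200 mg/L.

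The 4 transporters belong to the same family of the major facilitator superfamily and differ in the siderophores they carry. ARN1, which carries ferrichromes, read 2393, 2236 and 2226 at 110 mg/L, against 1325, 1340.4 and 1308 in the LOEC controls. It read 2120.3, 2478 and 2669 at 200 mg/L, against 1459.8, 1189.9 and 1295 in the IC20 controls. All treated arrays lay above all controls of their experiment. The log2 change of ARN1 was 0.79 (SE 0.088, 95% interval 0.59 to 0.98) at 110 mg/L and 0.88 (95% interval 0.69 to 1.07) at 200 mg/L, the widest of the 4 transporters at both doses.

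SIT1, which carries ferrioxamine B and other hydroxamates, read 8241, 8318 and 8219.8 at 110 mg/L, against 5720.2, 5478 and 5481 in the LOEC controls. SIT1 read 7390.1, 8059 and 8480.1 at 200 mg/L, against 6303, 4974 and 6082 in the IC20 controls. ENB1, which carries enterobactin, a catecholate siderophore of bacteria, read 8069.6, 8270.4 and 7851 at 110 mg/L, against 5158, 4906 and 5158 in the LOEC controls. At 200 mg/L ENB1 read 5884, 7239.7 and 7597, against 5681, 4328 and 5405 in the IC20 controls. Both genes stood above their controls on every treated array, and on the lowest 200 mg/L array ENB1 exceeded its highest control by only 202 units. The log2 changes of SIT1 were 0.57 at 110 mg/L (95% interval 0.39 to 0.75) and 0.47 at 200 mg/L (95% interval 0.29 to 0.65). Those of ENB1 were 0.67 (95% interval 0.43 to 0.91) and 0.43 (95% interval 0.19 to 0.66). Both intervals of ENB1 rest on a spread pooled over all arrays. Its log2 SD was 0.038 at 110 mg/L and 0.042 in the LOEC controls, but 0.196 at 200 mg/L and 0.209 in the IC20 controls. The interval at 200 mg/L thus draws on the smaller spread of the LOEC experiment.

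ARN2, which carries triacetylfusarinine C, had the smallest change of the 4 transporters at both doses. ARN2 read 833, 855 and 803 at 110 mg/L, against 643, 649.9 and 604 in the LOEC controls. It read 701, 778 and 847 at 200 mg/L, against 683, 583 and 637 in the IC20 controls. Its treated arrays lay above its controls at both doses, and at 200 mg/L the gap between the groups was 18.1 units. The log2 change was 0.39 (95% interval 0.23 to 0.56) at 110 mg/L and 0.29 (95% interval 0.12 to 0.45) at 200 mg/L. These intervals also rest on the pooled spread, although the log2 SD of ARN2 was 0.045 at 110 mg/L and 0.137 at 200 mg/L. Over the 4 transporters the median log2 change was 0.62 at 110 mg/L and 0.45 at 200 mg/L.

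The reductases FRE3 and FRE4 free iron from siderophores at the cell surface, FRE3 from hydroxamates such as ferrioxamine B and ferrichrome and FRE4 from rhodotorulic acid. FRE3 read 501, 486 and 515 at 110 mg/L, against 362, 380.4 and 382 in the LOEC controls. FRE3 at 200 mg/L read 429, 529 and 582, against 446, 318 and 367 in the IC20 controls. The groups were apart at 110 mg/L, while at 200 mg/L the lowest treated array lay below the highest control. The log2 change of FRE3 was 0.42 (SE 0.12, 95% interval 0.14 to 0.69) at 110 mg/L and 0.45 (95% interval 0.17 to 0.72) at 200 mg/L. Both intervals rest on the same pooled spread, although the log2 SD of FRE3 was 0.042 at 110 mg/L and 0.226 at 200 mg/L.

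FRE4 stood above its controls at 110 mg/L and not at 200 mg/L. It read 383, 377 and 384 at 110 mg/L, against 256, 266 and 275 in the LOEC controls, with every treated array above every control. It read 223, 238 and 209.5 at 200 mg/L, against 261, 249 and 234 in the IC20 controls, where the groups overlapped. The log2 change of FRE4 was 0.52 (SE 0.056, 95% interval 0.40 to 0.64) at 110 mg/L. The change at 200 mg/L was -0.15 (95% interval -0.28 to -0.03) as measured, but 2 of the 3 treated arrays lay below 228.8, so the size of this change is uncertain and no fold is given. The response at 200 mg/L minus that at 110 mg/L was -0.67 (SE 0.079, 95% interval -0.85 to -0.50) as measured. With readings below 228.8 raised to that level, a choice made after seeing the data, the change of FRE4 at 200 mg/L was -0.098 and the difference was -0.62 (SE 0.066).

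**Figure D1:**
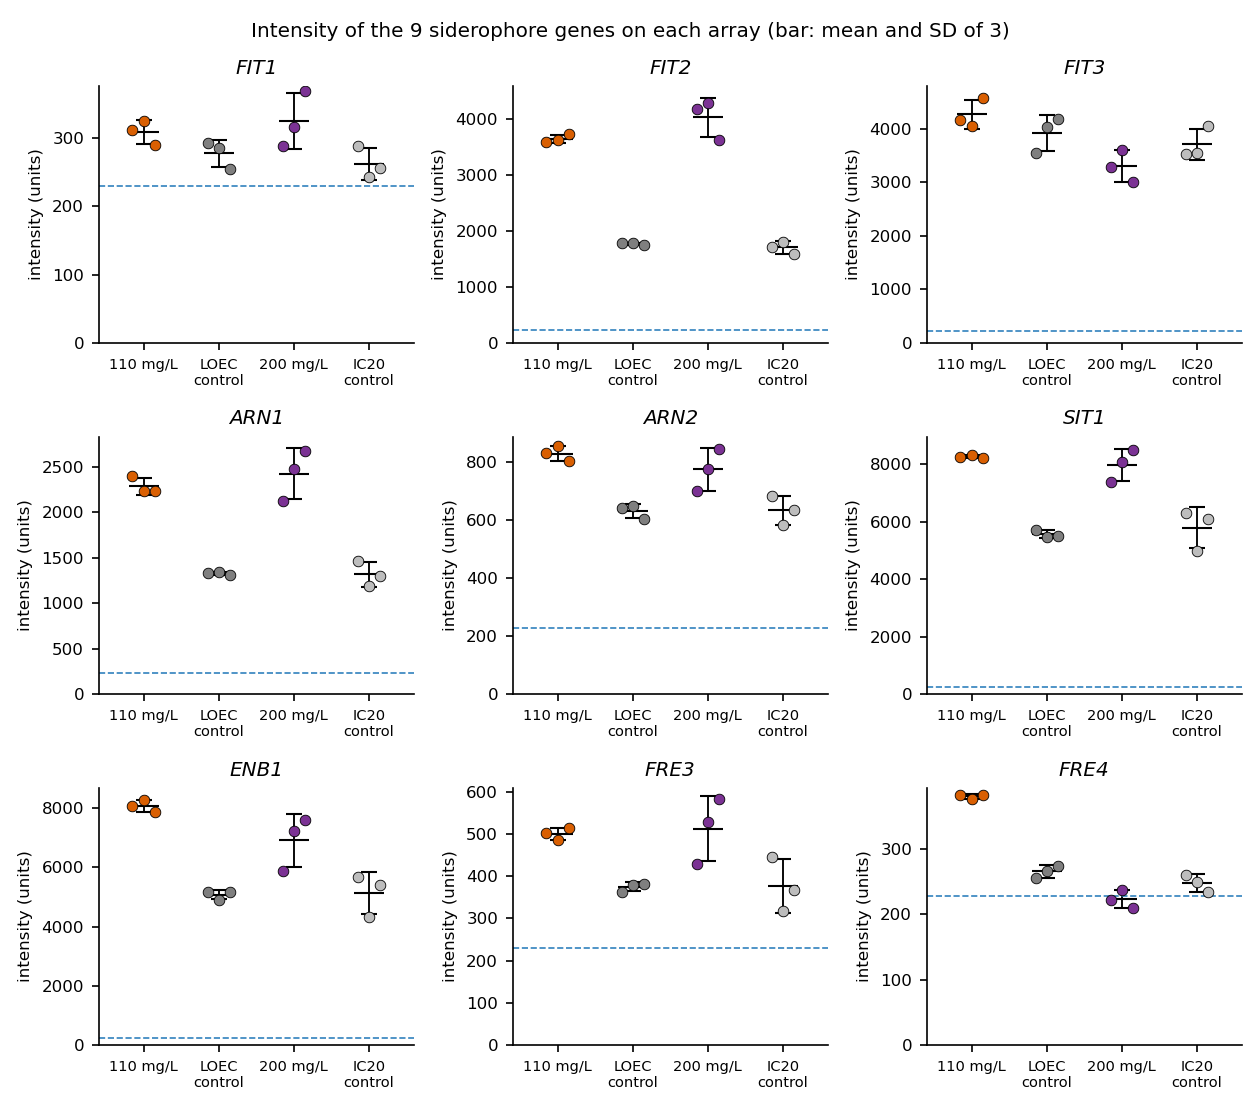
Deposited intensity of each of the 9 genes on each of the 12 arrays, 1 panel per gene, for 110 mg/L, LOEC controls, 200 mg/L and IC20 controls; points are arrays and bars are group means with SD (n = 3), and the dashed line marks 228.8. FIT2 and ARN1 stand apart from their controls at both doses, FIT1 and FIT3 overlap theirs, and FRE4 is apart from its controls at 110 mg/L and overlaps them at 200 mg/L.

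The change of each gene was also fitted with limma across all 5449 genes, and a gene was counted where its Benjamini-Hochberg adjusted p was under 0.05. At 110 mg/L 6 of the 9 genes were counted as higher (FIT2, ARN1, ARN2, SIT1, ENB1 and FRE4), beside 3.05% of all genes, and 0 as lower, beside 1.21% of all genes. The treated arrays lay wholly above the LOEC controls for 7 of the 9, which adds FRE3, beside 15.4% of all genes. The median log2 change of the 9 genes was 0.52, and that of all genes was 0.0052. Because the genes were selected with these changes known, nothing is read from the difference between these shares. ARN2 fell short of the threshold when LOEC control array 3, 110 mg/L array 1 or 110 mg/L array 2 was left out, and FRE3 passed it without 200 mg/L array 1, through the shared estimate of the spread.

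At 200 mg/L 6 of the 9 genes were counted as higher (FIT2, ARN1, ARN2, SIT1, ENB1 and FRE3), beside 10.0% of all genes, and 0 as lower, beside 7.80%. The treated arrays lay wholly above the IC20 controls for 5 of the 9, without FRE3, beside 16.3% of all genes. The median log2 change of the 9 was 0.43, and that of all genes was 0.00021. As at 110 mg/L, nothing is read from the difference between the shares of the 9 and of all genes. Of the 6 genes counted at each dose, 5 were counted at both, FRE4 only at 110 mg/L and FRE3 only at 200 mg/L. For FRE3 this split depends on the spread pooled over both experiments, and its log2 changes were 0.42 at 110 mg/L and 0.45 at 200 mg/L. Fitted on only the 6 arrays compared, FRE3 passed at 110 mg/L and not at 200 mg/L. At 200 mg/L ARN2 and ENB1 also did not pass in that fit. The share of all genes counted at both doses was not computed, so nothing is read from the number counted at both. Without IC20 control array 2, or without 200 mg/L array 3, the count at 200 mg/L was 3 (FIT2, ARN1 and SIT1). Without 200 mg/L array 2, ARN2, ENB1 and FRE3 were likewise not counted and FRE4 was counted as lower, without IC20 control array 3 ARN2 and FRE3 were not, and FIT1 was counted without IC20 control array 1 or 200 mg/L array 1.

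**Figure D2:**
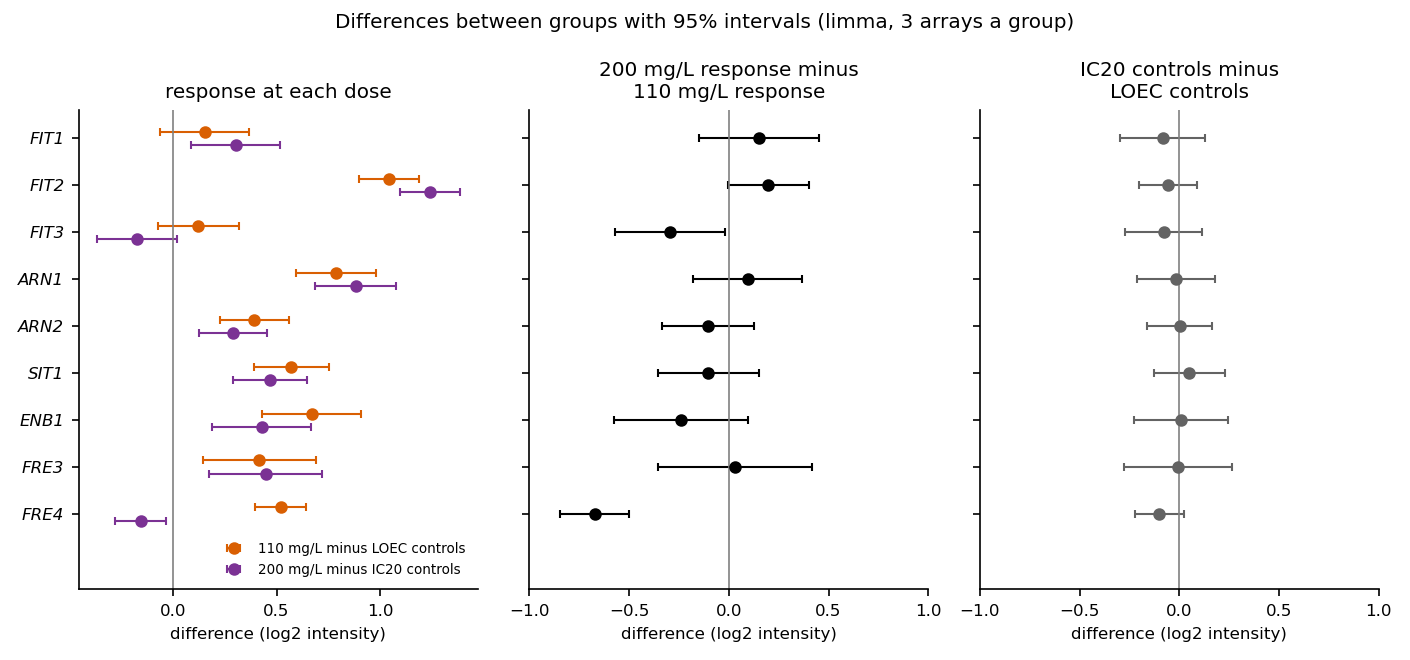
Log2 change of each of the 9 genes with its 95% interval (limma, 12 arrays) at each dose against its own controls (left panel), for the 200 mg/L response minus the 110 mg/L response (middle panel) and for IC20 controls minus LOEC controls (right panel). FIT2 is farthest from 0 at both doses, at 1.04 and 1.24, FRE4 has the widest difference between the responses, at -0.67, and all 9 intervals of the control contrast include 0.

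The responses to the doses were set against each other as a difference of differences, since each dose had controls of its own. Among the 9 genes 0 were counted as more positive at 200 mg/L, beside 0.991% of all genes, and 1, FRE4, as more negative, beside 0.257% of all genes. For the other 8 genes the difference lay between -0.29 (FIT3, 95% interval -0.57 to -0.02) and 0.20 (FIT2). The differences of ARN1, ARN2, SIT1 and ENB1 were 0.09, -0.10, -0.10 and -0.24, and the 95% interval for ENB1 was -0.58 to 0.09. Intervals that include 0 leave room for differences of either sign, and do not show that these genes answered both doses alike.

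The contrast of the untreated cultures, IC20 controls minus LOEC controls, played no part in selecting the genes. The log2 differences of the 9 genes lay between -0.10 (FRE4) and 0.05 (SIT1). For all 9 genes the control groups overlapped, while 21.2% of all genes had control groups that did not. By limma 0 of the 9 genes passed, beside 0.789% of all genes. An unadjusted limma p under 0.05 was found for 0 of the 9, beside 792 of the 5449 genes. The lowest adjusted p was 0.454 for FRE4. The means of SIT1, for example, were 5786 ± 712 in the IC20 controls and 5560 ± 139 in the LOEC controls (SD, n = 3 each).

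The order of the 4 group means fell into a few patterns. For FIT2 and ARN1 the order was 200 mg/L, 110 mg/L, LOEC controls and IC20 controls, and the only neighbours whose arrays did not overlap were 110 mg/L and the LOEC controls. For ARN2 and SIT1 the order was 110 mg/L, 200 mg/L, IC20 controls and LOEC controls, and only 200 mg/L and the IC20 controls were apart. ENB1 had the same order, with 110 mg/L also apart from 200 mg/L. FRE3 ran 200 mg/L, 110 mg/L, IC20 controls and LOEC controls, apart only between 110 mg/L and the IC20 controls. FRE4 ran 110 mg/L, LOEC controls, IC20 controls and 200 mg/L, with only the first of these apart from its neighbour. FIT1 and FIT3 had overlapping arrays at every step of their order. Levels set across the experiments in this way also carry whatever differed between the experiments.

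By the median SD the 9 genes, like the genes measured as a whole, varied more between replicate arrays in the IC20 experiment. FIT3 did not follow this among the controls, with a log2 SD of 0.126 in the LOEC controls and 0.111 in the IC20 controls. Over all genes the median SD, on the log2 scale, was 0.057 at 110 mg/L and 0.056 in the LOEC controls. It was 0.095 at 200 mg/L and 0.082 in the IC20 controls. Over the 9 genes the median SD was 0.042 at 110 mg/L and 0.043 in the LOEC controls, and 0.137 at 200 mg/L and 0.127 in the IC20 controls. In that experiment the deviation of an array from its group mean followed coding length across all genes. Spearman's rho was -0.49 on 200 mg/L array 1 and 0.57 on 200 mg/L array 3. It was -0.46 on IC20 control array 2 and 0.40 on IC20 control array 1. The trend was weaker on 200 mg/L array 2 (rho -0.15) and on IC20 control array 3 (rho 0.18). In the LOEC experiment rho stayed between -0.078 and 0.152. ARN1, ARN2, SIT1, ENB1 and FRE3 have coding lengths of 1821 to 2136 bases. All 5 lay below their group mean on 200 mg/L array 1 (median deviation -0.19) and on IC20 control array 2 (median -0.21). All 5 lay above it on 200 mg/L array 3 (median 0.15) and on IC20 control array 1 (median 0.15). On 200 mg/L array 2, where rho was negative, all 5 also lay above it (median 0.039). On IC20 control array 3, 2 of the 5 lay below it. FRE4, at 2160 bases, deviated by no more than 0.09 in either direction.

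With the trend with coding length removed from each array, the log2 changes at 200 mg/L were 0.86 for ARN1, 0.45 for SIT1, 0.41 for ENB1, 0.27 for ARN2 and 0.42 for FRE3. Their standard errors were then smaller, for example 0.049 for SIT1 where the unadjusted fit gave 0.081. Without 200 mg/L array 1 and IC20 control array 2 together, a choice made after seeing the data, the changes at 200 mg/L were 0.90 for ARN1, 0.42 for SIT1, 0.42 for ENB1, 0.30 for ARN2 and 0.45 for FRE3, and that of FIT2 was 1.25. The part of the length trend in any change was not tested beyond these values.

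**Figure D3:**
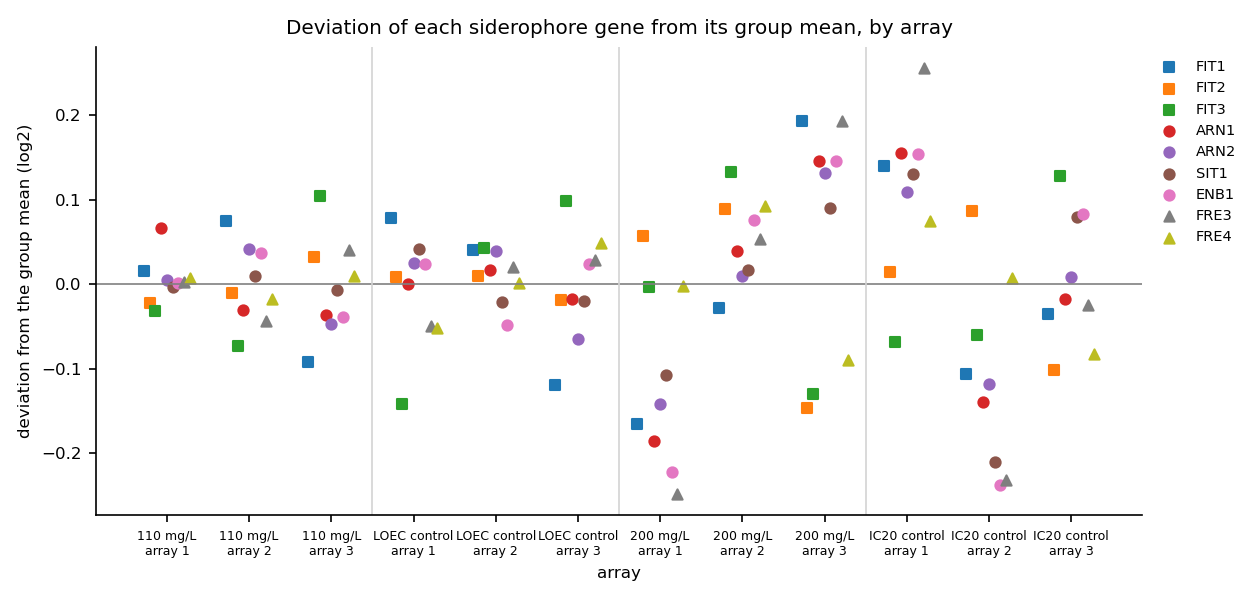
Deviation of each of the 9 genes from its group mean (log2) on each array of the 4 groups. ARN1, ARN2, SIT1, ENB1 and FRE3 lie on the same side of their means on all 3 arrays at 200 mg/L and on IC20 control arrays 1 and 2. In the LOEC experiment the deviations of these genes stay between -0.065 and 0.067.

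FRE3, FIT2 and FIT3 are neighbours on chromosome XV in the R64 assembly, in the order FRE3, YOR381W-A, FIT2, FIT3, FRE5. Their changes were unlike: at 110 mg/L the log2 changes were 0.42 for FRE3, 1.04 for FIT2 and 0.12 for FIT3, and at 200 mg/L they were 0.45, 1.24 and -0.17. FRE5, a reductase gene next to FIT3, read below 228.8 on all 12 arrays and has no fold. ARN1 and ARN2 both lie on chromosome VIII.

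Other genes of iron uptake and handling were counted in lists written from general knowledge, with earlier results of these data known, and 32 were measured. At 110 mg/L 8 of the 32 rose and 2 fell by limma, beside 3.05% and 1.21% of all genes. There were 9 that rose and 6 that fell at 200 mg/L, beside 10.0% and 7.80% of all genes. The median log2 change of the 32 was 0.16 at 110 mg/L and 0.090 at 200 mg/L. In the contrast of the controls 0 of the 32 passed, beside 0.789% of all genes. The lists, and the genes named from them, were chosen with these data known. The adjusted p-values given for them below therefore describe these arrays and are no independent evidence.

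The list for reductive iron uptake at the cell surface had 7 members. In this route ferric iron is reduced and carried in by a multicopper oxidase and a permease. FET4 was in the list although it is a low-affinity transporter that does not act through this oxidase and permease. At 110 mg/L 2 rose and 1 fell (all genes 3.05% and 1.21%), and at 200 mg/L 2 rose and 2 fell (all genes 10.0% and 7.80%). FTR1, the high-affinity iron permease, averaged 3146 ± 234 at 200 mg/L and 6264 ± 262 in the IC20 controls (SD, n = 3 each), a log2 change of -0.995 (SE 0.055, limma adjusted p = 3.8e-07). At 110 mg/L it averaged 5277 ± 162, against 6116 ± 57.1 in the LOEC controls, with a change of -0.21 that did not pass (adjusted p = 0.058) but passed without 200 mg/L array 1 or 200 mg/L array 3. The difference of its responses was -0.78 (limma adjusted p = 0.00040). FET4, the low-affinity iron transporter, fell at both doses, with log2 changes of -0.27 (adjusted p = 0.043) at 110 mg/L and -0.81 (adjusted p = 8.4e-06) at 200 mg/L, and these responses differed by -0.54 (adjusted p = 0.016). CCC2, a copper transporter that supplies the multicopper oxidase, rose by 0.48 (adjusted p = 0.00015) at 110 mg/L and by 0.34 (adjusted p = 0.00086) at 200 mg/L. ATX1, a copper chaperone gene named after its values were seen, rose by 0.24 (adjusted p = 0.0026) at 110 mg/L and by 0.22 (adjusted p = 0.0020) at 200 mg/L. The call of FET4 at 110 mg/L was lost when any 1 array of the LOEC experiment or IC20 control array 3 was left out, and that of its difference without 110 mg/L array 1. The replicate block ended both calls.

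Of the 4 other reductase genes of the FRE family 1 rose at 110 mg/L (all genes 3.05%), and at 200 mg/L 1 rose and 1 fell (all genes 10.0% and 7.80%). FRE6, a reductase of the vacuolar membrane, averaged 3445 ± 125 at 110 mg/L and 2642 ± 201 in the LOEC controls, a log2 change of 0.39 (SE 0.076, limma adjusted p = 0.016). At 200 mg/L it averaged 3398 ± 267, against 2398 ± 173 in the IC20 controls, a change of 0.50 (limma adjusted p = 0.0011). FRE7, a reductase known for copper uptake, was the member counted as lower at 200 mg/L, and since it read below 228.8 on every array it has no fold. The transporter relatives of the family were represented by GEX1 alone, on a probe set shared with a similar sequence and below 228.8, and it did not pass at either dose, although it passed at 200 mg/L without LOEC control array 1 or 200 mg/L array 2. FRE6 did not pass at 110 mg/L without LOEC control array 2 or 3, or without 110 mg/L array 2 or 3. With the replicate block FRE6 did not pass at 110 mg/L and GEX1 passed at 200 mg/L.

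Of 13 genes of vacuolar and intracellular iron handling 3 rose and 1 fell at 110 mg/L (all genes 3.05% and 1.21%), and 3 rose and 2 fell at 200 mg/L (all genes 10.0% and 7.80%). TIS11 (also called CTH2), whose product promotes decay of mRNAs of iron-using proteins, averaged 1273 ± 109 at 110 mg/L and 429 ± 23.6 in the LOEC controls, a log2 change of 1.57 (SE 0.078, limma adjusted p = 5.1e-07). At 200 mg/L TIS11 averaged 1120.0 ± 102, against 472 ± 18.5 in the IC20 controls, a change of 1.24 (limma adjusted p = 1.2e-06). HMX1, a haem oxygenase that frees iron from haem, rose by 0.66 at 110 mg/L (adjusted p = 0.00038) and by 1.18 at 200 mg/L (adjusted p = 1.3e-06), and its responses differed by 0.52 (adjusted p = 0.046). VHT1, the biotin transporter, was counted in this list although it does not carry iron. VHT1 fell by 0.37 at 110 mg/L (adjusted p = 0.037) and by 0.66 at 200 mg/L (adjusted p = 0.00041). The other genes counted in this list, named after their values were seen, were COT1, a vacuolar metal transporter gene that rose by 0.27 at 110 mg/L (adjusted p = 0.0012), SMF3, a vacuolar iron exporter gene that rose by 0.38 at 200 mg/L (adjusted p = 0.036), and ISU2, a gene of the iron-sulfur cluster scaffold that fell by 0.26 at 200 mg/L (adjusted p = 0.0069). The call of SMF3 was lost without LOEC control array 1 or 2, 110 mg/L array 1 or 2, IC20 control array 2, or 200 mg/L array 2 or 3. The call of VHT1 at 110 mg/L was lost when any 1 array of the LOEC experiment or 200 mg/L array 2 was left out, and the call for the difference of HMX1 was lost without any 1 of the 12 arrays except 200 mg/L array 3. The replicate block also ended the calls of VHT1 at 110 mg/L, of SMF3 at 200 mg/L and of the HMX1 difference.

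Among 7 genes of iron regulators 2 rose at 110 mg/L (all genes 3.05%), and at 200 mg/L 3 rose and 1 fell (all genes 10.0% and 7.80%). YAP5, a transcription factor active when iron is high, averaged 785 ± 13.0 at 110 mg/L and 456 ± 1.35 in the LOEC controls, a log2 change of 0.78 (limma adjusted p = 5.7e-05). At 200 mg/L YAP5 averaged 1037 ± 102, against 493 ± 37.5 in the IC20 controls, a change of 1.07 (limma adjusted p = 1.5e-06). AFT1, which codes for the main activator of the iron regulon, rose by 0.31 (adjusted p = 0.035) at 110 mg/L and by 0.29 (adjusted p = 0.016) at 200 mg/L. FRA1, a gene of a complex that restrains Aft1 and Aft2 when iron suffices, changed by 0.31 at 110 mg/L without passing (adjusted p = 0.073) and rose by 0.27 at 200 mg/L (adjusted p = 0.046). GRX4, a glutaredoxin gene of the same restraint and named after its values were seen, fell by 0.18 at 200 mg/L (adjusted p = 0.044), and this call was lost without any 1 array of the IC20 experiment, LOEC control array 1 or 2, or 110 mg/L array 1. AFT1 did not pass at 110 mg/L without LOEC control array 1 or 2 or any 1 of the 110 mg/L arrays, nor at 200 mg/L without IC20 control array 1 or 2 or 200 mg/L array 3. FRA1 passed at 110 mg/L without 200 mg/L array 2 or 3, and at 200 mg/L it passed without LOEC control array 3, IC20 control array 1 or 200 mg/L array 2 and without no other single array, and it did not pass with the replicate block.

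**Figure D4:**
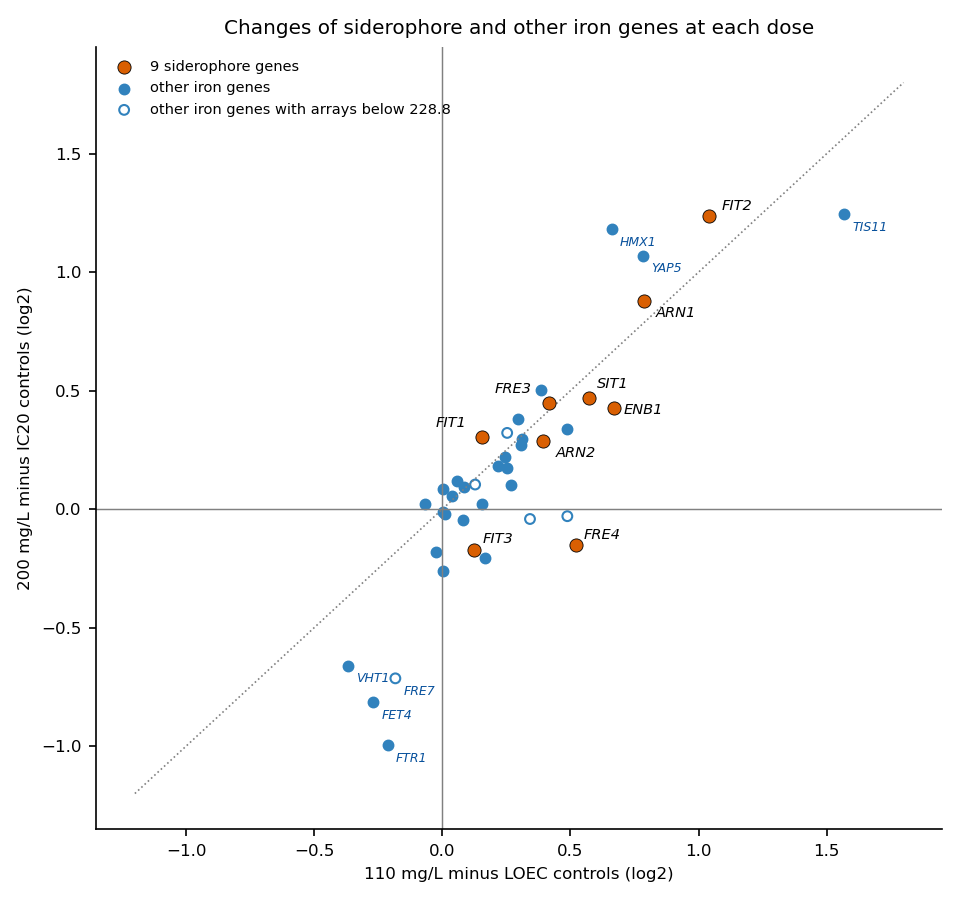
Log2 change at 110 mg/L minus LOEC controls (horizontal) against log2 change at 200 mg/L minus IC20 controls (vertical) for the 9 siderophore genes (orange) and 32 other iron genes (blue, open where arrays lie below 228.8); the dotted line marks equal change. FTR1 and FET4 lie below 0 and FIT2, TIS11, HMX1 and YAP5 lie far above it at both doses, and FRE4 sits at 0.52 and -0.15.

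Likeness of profiles was measured as the root mean square difference of 12 log2 values, each gene centred on its own mean over the arrays, and it describes these 12 arrays, which share groups and array-wide trends. The genes nearest to FIT2 were PDR5 (0.102), a gene of a multidrug efflux pump, PHO11 (0.115), an acid phosphatase gene read by a probe set shared with a similar sequence, and YAR068W (0.142). The nearest of the other siderophore genes was ARN1, at 0.210 and 15th of 5448 genes. For ARN1 the nearest were IML2 (0.125), YAR068W (0.133) and SNQ2 (0.135), a gene of another multidrug efflux pump, and SIT1 came 15th at 0.174. The log2 changes of PDR5 were 0.97 at 110 mg/L and 1.11 at 200 mg/L, given as a description since it was picked for its likeness to FIT2.

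SIT1 and ENB1 were each other's nearest gene among all 5448, at 0.0811. FIT1 was nearest to ARN2 among the 9, at 0.0957. FRE4 had FIT3 as its nearest of the 9, at 0.198 and rank 40. In levels over the arrays, FIT2, ARN1, ARN2, SIT1 and ENB1 lay wholly above their controls at both doses, FRE3 and FRE4 did so at 110 mg/L, and FIT1 and FIT3 overlapped their controls at both. The share of all genes that lay wholly above their controls at both doses was not computed.

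**Figure D5:**
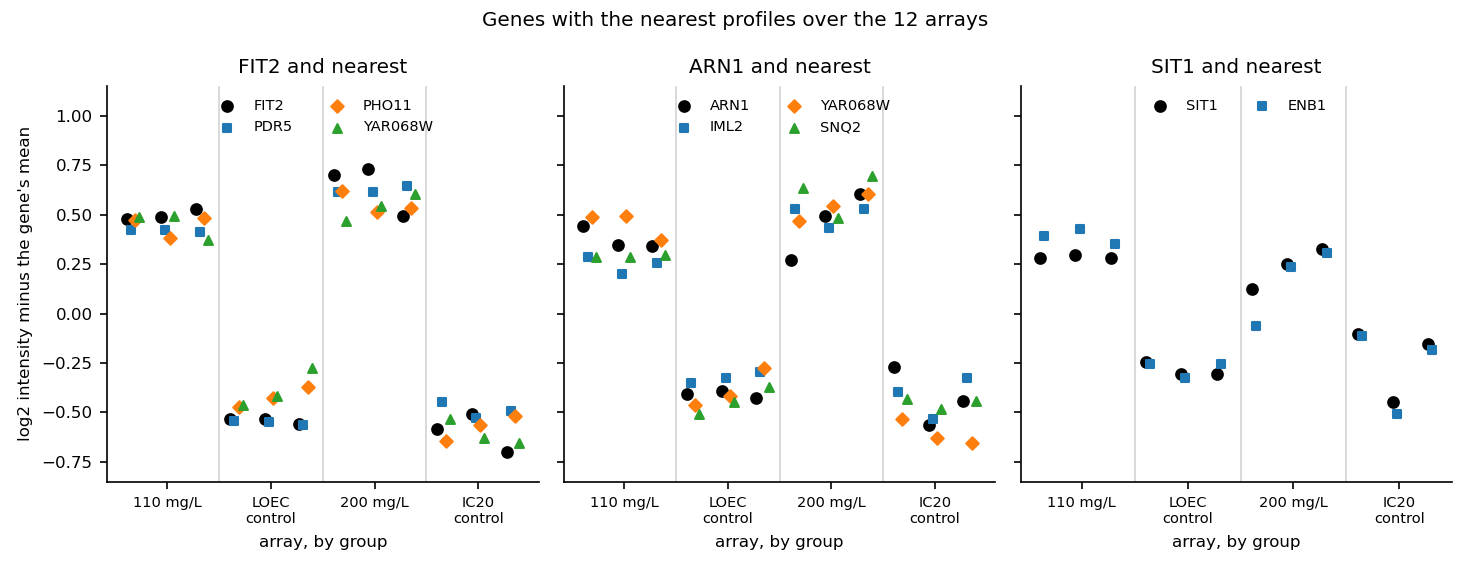
Log2 intensity of FIT2, ARN1 and SIT1 and of their nearest genes minus each gene's own mean, on each array in the 4 groups; symbols stand for genes. PDR5 shares the steps of FIT2 between treated and control groups, but on 200 mg/L array 3 FIT2 is lowest of its group and PDR5 highest. ENB1 lies near SIT1, though on 200 mg/L array 1 ENB1 is at -0.064 and SIT1 at 0.126.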

How the data were processed

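RNA of 12 yeast cultures (4 groups of 3) was hybridised to 1-colour arrays. The deposited intensities, on a linear scale, come from the authors; per the submitters' processing notes Affymetrix Expression Console was used. How probes were summarised and normalised is not given in the sources used. GEO's platform annotation names 1 gene for 5498 of 5716 probe sets and leaves 218 unnamed; names were updated through RefSeq R64. For 47 genes with several probe sets the brightest on average was used, leaving 5449 genes. No coordinates are printed, because the sources used name no build for the array.

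The authors' intensities were turned to log2 and fitted with limma 3.58.1 under R 4.3.3, as 4 group means over all 12 arrays (8 residual and 2.73 prior degrees of freedom). P-values are two-sided and adjusted by Benjamini-Hochberg over 5449 genes. With 3 arrays against 3 an exact test cannot go below 0.1, so none was used. The procedure was tested on simulated data.

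The 9 genes and the lists were chosen with earlier results of these data known. Named are the 9 genes, up to 3 genes per list with the widest change among those past the test at 1 dose or both, and the 3 nearest genes of the 2 siderophore genes with the widest range of means; others that are named were chosen after their values were seen. FRA2 was matched as BOL2, and GEX2 was not matched.

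The fit was repeated with median centring, quantile normalization, without the 20% dimmest genes, with all probe sets, with the dimmest probe set of a gene, with an intensity trend and robust moderation, on log2 of the value plus 16, at adjusted p under 0.01, with a replicate block, with the length trend removed (lowess), on only the 6 arrays compared, and without each array in turn. Added after seeing the data were the fit without 200 mg/L array 1 and IC20 control array 2 and the fit with readings below 228.8 raised to it, without genes below it on all arrays.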

Additional observations from a re-analysis of the deposited data

Results flagged for a closer look

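FRE4 is listed because the across-gene fit of the difference between the responses counted it: its log2 change at 200 mg/L minus that at 110 mg/L was -0.67 (SE 0.079) as measured. FRE4 was chosen with its changes known, so this is a description and no independent evidence. Of its 3 arrays at 200 mg/L 2 read below 228.8, the highest reading of a deleted locus, and with such readings raised to 228.8 the difference was -0.62. Groups of 3 arrays were not screened for outlying arrays.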

How the results depend on the processing

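Of 879 values of the 9 genes' changes under 25 alternatives, 827 kept their side of the threshold, 22 lost it, 11 gained it, 19 uncalled values changed sign and 0 called values reversed. The changes of FIT2, ARN1 and SIT1 at both doses, and of ENB1 at 110 mg/L, passed under all 25. FRE4 at 110 mg/L passed under all 24 that kept it. All these fits reuse the arrays on which the changes were known at selection, so passing them is no independent evidence. The count at 200 mg/L was 3 at adjusted p under 0.01 and with only the 6 arrays compared, against 6. For the difference of the responses the count was 0 without the 20% dimmest genes, because FRE4 is itself among them (with FIT1 and FRE3); elsewhere the FRE4 value ranged over -0.72 to -0.62 and passed each time. Leaving out 1 array at a time gave counts of 5 to 7 at 110 mg/L, 3 to 7 at 200 mg/L, 1 for the difference and 0 for the controls. With 3 arrays per group the standard errors of the 9 log2 changes at a dose ran between 0.056 (FRE4) and 0.123 (FRE3).

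Replicate numbers did not pair the arrays: same-numbered deviations correlated at -0.32, -0.0098 and -0.13 in the LOEC experiment and at -0.61, -0.20 and 0.14 in the IC20 experiment, and 0 of 6 and 1 of 6 arrays correlated best with their own number. With the replicate block the counts of the 9 genes were 6 at 110 mg/L, 5 at 200 mg/L (FRE3 no longer passed), 1 for the difference and 0 for the controls. Among the other iron genes named, it changed 8 calls, each given beside its gene. Over all genes the count at 110 mg/L was 232 and ranged over 108 to 337, that at 200 mg/L was 971 (444 to 1204), that for the difference 68 (32 to 98) and that for the controls 43 (5 to 72).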
